A study of Mus musculus with 4 samples.

Results

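Transcripts of 7 chondroitin sulfate proteoglycan genes were followed across the cell classes of uninjured and injured mouse spinal cord. They were the rows named Acan, Bcan, Ncan, Vcan, Cspg4, Cspg5 and Ptprz1 among the 32287 gene features of both matrices, selected by name alone. The mice carried a Cx30-tdTomato reporter, in which Cre under Cx30 (a gap junction gene of astrocytes) switched on tdTomato after tamoxifen. All animals entered at 8 to 12 weeks of age, both sexes were used with 1 to 2 animals per sex and condition, and all received a pool of enhancer viruses (AAV) in the blood, 14 days before surgery in the injured animals. Injured mice had a contusion of the mid-thoracic cord and were sampled 3 days later, and uninjured mice had no contusion. Segments of 5 mm were digested and tdTomato+ cells were sorted into 1 gene expression library per condition, so no difference between conditions has a replicate check. The reporter limits the model, since the sorted cells also held microglia-like, endothelial-like, ependymal-like and fibroblast-like cells, and animals were pooled.

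Chondroitin sulfate proteoglycans are core proteins that carry sulfated sugar chains. The lecticans aggrecan (Acan), brevican (Bcan), neurocan (Ncan) and versican (Vcan) are secreted, bind hyaluronan through one end and tenascins through the other, and build the extracellular matrix of the central nervous system, including the nets around neurons. Cspg4 encodes NG2, a transmembrane proteoglycan of oligodendrocyte precursor cells (OPCs) and of pericytes. Cspg5 encodes neuroglycan C, a transmembrane proteoglycan with an EGF-like domain. Ptprz1 encodes a receptor-type tyrosine phosphatase whose secreted splice form is phosphacan. Scars of the injured cord accumulate such proteoglycans, whose sugar chains restrain the growth of axons. The reads came from the 3′ ends of transcripts and were counted per gene. Splice forms such as phosphacan could therefore not be told apart in the counts, and levels are compared below between cells and not between genes.

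All 7 genes are protein coding and lie on separate stretches of the genome (GRCm38, GENCODE M21). Bcan (ENSMUSG00000004892) lies on chromosome 3 from 87987531 to 88000230, Ncan (ENSMUSG00000002341) on chromosome 8 from 70093085 to 70120873 and Vcan (ENSMUSG00000021614) on chromosome 13 from 89655312 to 89742509, all on the minus strand. On the plus strand, Acan (ENSMUSG00000030607) lies on chromosome 7 from 79053483 to 79115099 and Ptprz1 (ENSMUSG00000068748) on chromosome 6 from 22875502 to 23052916. Cspg4 (ENSMUSG00000032911, 56865033 to 56899870) and Cspg5 (ENSMUSG00000032482, 110243783 to 110262576) share chromosome 9 and the plus strand. Ncan overlaps a microRNA gene on its own strand (Mir7066), while the genes that overlap Vcan (Gm16318 and Gm4117) and Cspg5 (Gm43622) lie on the other strand.

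RefSeq promoter windows (GRCm38.p6) were found for 6 of the 7 genes, not for Cspg5. The 250 bases before the start are shown for Bcan and Vcan, the proteoglycans whose transcripts in astrocyte-like cells differed by 2-fold or more, in opposite directions, between conditions. Both are written 5′ to 3′ on the minus strand of the genome, and capitals mark the only match in each to the motifs searched. The Bcan window is chr3:88000357-88000606 and the Vcan window is chr13:89742513-89742762.
Bcan: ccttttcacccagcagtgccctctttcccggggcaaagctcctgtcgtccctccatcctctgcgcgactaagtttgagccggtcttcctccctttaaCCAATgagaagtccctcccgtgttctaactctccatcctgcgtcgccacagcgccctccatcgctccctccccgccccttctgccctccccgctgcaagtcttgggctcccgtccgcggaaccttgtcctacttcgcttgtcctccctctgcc
Vcan: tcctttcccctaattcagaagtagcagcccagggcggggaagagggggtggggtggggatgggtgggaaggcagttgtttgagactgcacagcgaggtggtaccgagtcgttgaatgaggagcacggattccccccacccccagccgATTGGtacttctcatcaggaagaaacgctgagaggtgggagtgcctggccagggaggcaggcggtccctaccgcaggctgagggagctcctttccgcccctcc
The capitals mark the CCAAT box, in the forward orientation in Bcan, 153 bases before the start, and as its reverse complement ATTGG in Vcan, from 103 bases before the start. The CCAAT letters occurred on either strand in 33.8% of all 32851 windows of this length and in 3 of the 6 proteoglycan windows (Acan, Bcan and Vcan). The AP-1 letters TGANTCA occurred in 6.75% of all windows and in 0 of the 6. The NFI motif TTGGC, which can overlap ATTGG by 4 letters, occurred in 41.5% of all windows and in those of Acan, Cspg4 and Ncan, and the SOX core ACAAT occurred in 27.7% of all windows and in that of Cspg4. A match describes letters in the window, not binding.

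After the stated filter of the study (more than 500 and fewer than 50000 gene UMIs), 879 injured cells with a median of 6816 gene UMIs and 4159 uninjured cells with a median of 3343 were kept, and 40 injured cells were above the limit. A UMI is 1 captured transcript, and levels are UMIs of a gene per 1000000 gene UMIs (CPM) summed over a class. Cells were clustered without the 7 genes and without 55 genes of the chondroitin sulfate pathway, and clusters were named from marker genes. Every marker of a class had UMIs in that class in both libraries, and 415 injured and 3103 uninjured cells were astrocyte-like. Different clusters held most of them. Cluster 1, led by Tgm1, Lcn2 and Gfap, held 338 of the injured and 15 of the uninjured astrocyte-like cells, whereas clusters 5, 7 and 8 held nearly all uninjured ones. Another 28 injured and 856 uninjured cells with astrocyte markers stayed unnamed because neuron genes led their clusters. The libraries shared 7 cell barcodes, and leaving these cells out moved no log2 ratio of the 7 genes in astrocyte-like cells beyond its counting interval. Intervals given in brackets are exact 95% intervals that cover counting error only.

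The first question was how the proteoglycan transcripts of astrocyte-like cells differed between injured and uninjured cord. Bcan was lower in the injured library, and Vcan was higher. Ncan was moderately higher and Ptprz1 was slightly lower. Cspg4 and Cspg5 were also higher in the sum over all cells, but that difference, and most of the size of the Vcan difference, lay in 6 cells with Pdgfra, as described next.

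Among injured astrocyte-like cells, 6 cells had a UMI of Pdgfra, a receptor gene used here as an OPC marker. The paper shows Pdgfra among markers that OPCs share with perivascular cells. The 6 cells all belonged to cluster 1 and held 6.93% of the gene UMIs of the injured class. The same 6 cells held 111 of 161 Vcan UMIs (68.9%), 22 of 28 Cspg4 UMIs (78.6%), 293 of 585 Cspg5 UMIs (50.1%) and all 3 Acan UMIs. Their part in the Bcan and Ncan sums was small, at 3.57% and 5.86%, and it was 10.7% for Ptprz1. The 8 OPC markers together had 5690 CPM in these cells against 779.5 CPM in the other injured astrocyte-like cells and 9052 CPM in injured OPC-like cells, and the 9 astrocyte markers had 1267, 11781 and 1283 CPM in the same order. Pdgfra, by which the 6 cells were chosen, was 1 of the 8 OPC markers and gave 810 CPM of their sum in these cells. By that choice Pdgfra was 0 in the other injured astrocyte-like cells. Gfap, the intermediate filament of reactive astrocytes, had 60.9 CPM in the 6 cells and 2766 CPM in the other injured astrocyte-like cells. Each of the 6 cells scored higher for OPC markers, Pdgfra included, than for astrocyte markers. They had 17569 to 43746 gene UMIs, against a median of 3701 in the injured class. No doublets were removed, and whether these are OPCs or doublets was not tested. In the uninjured class 2 of 3103 cells had a Pdgfra UMI, and they held 0.0977% of the gene UMIs. Values are therefore given for all astrocyte-like cells and without the cells with a Pdgfra UMI, which left 409 injured and 3101 uninjured cells. The choice to leave these cells out was made after seeing the data, and Pdgfra and the proteoglycans were read in the same cells.

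**Figure D1:**
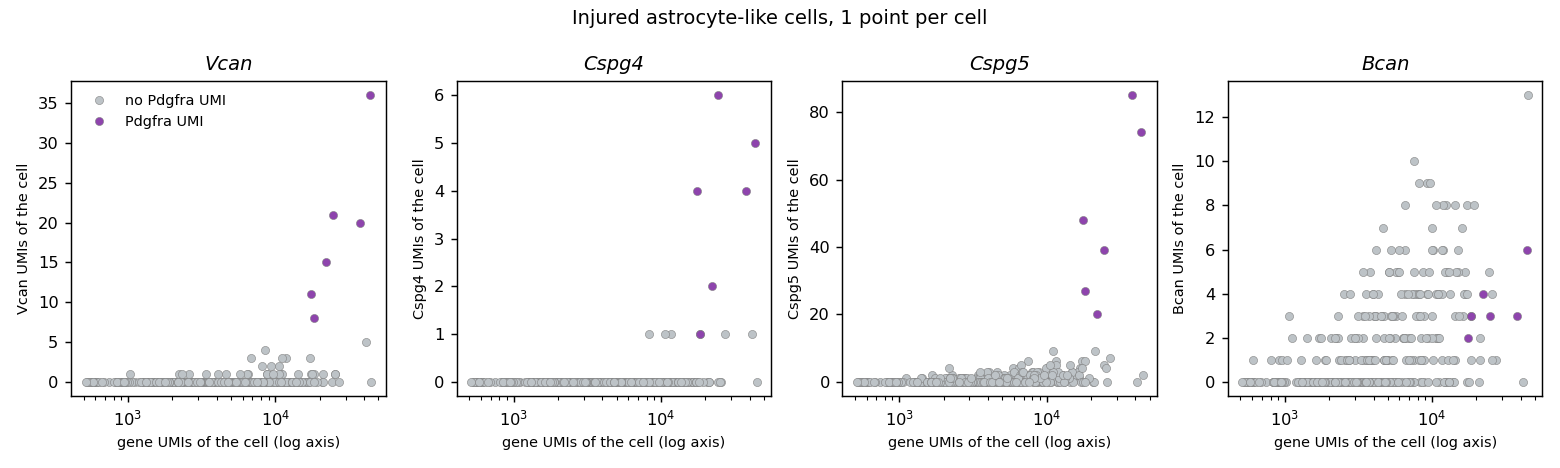
UMIs of Vcan, Cspg4, Cspg5 and Bcan in each of the 415 injured astrocyte-like cells (y axes) against the total gene UMIs of the cell (x axes, log scale), with the 6 cells that had a Pdgfra UMI in purple. These 6 cells lie above all others for Cspg5 and above all others for Vcan, while for Bcan they lie among or below cells of like depth.

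Brevican was lower in the injured library. Bcan had 785 CPM in uninjured astrocyte-like cells (769 to 802) and 249 CPM in injured ones (229 to 270), a ratio of 0.317 (0.291 to 0.344) and a log2 ratio of -1.66. Without the cells with Pdgfra the levels were 786 and 258 CPM, with a ratio of 0.328 (0.301 to 0.357). The difference was therefore much larger than the counting error and did not turn on the 6 cells. Within the single clusters it was smaller. Cluster 5, the only astrocyte-like cluster with at least 20 cells of each condition, had 816 CPM in 842 uninjured and 332 CPM in 60 injured cells, a ratio of 0.407 (0.288 to 0.559). This cluster was shallow, with medians of 1895 uninjured and 1666 injured gene UMIs, and mitochondrial transcripts were most of its leading genes, which limits every ratio given for it. In cluster 1 the ratio was 0.529 (0.380 to 0.756), with 15 uninjured cells. In clusters 7 and 8, with 8 and 9 injured cells, it was 0.799 (0.517 to 1.18) and 0.676 (0.400 to 1.07), and both intervals include 1. In cells scored male the log2 ratio was -1.52.

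Bcan transcripts were also in fewer injured cells. Of the cells without Pdgfra, 86.6% of uninjured (85.4 to 87.8%) and 43.8% of injured cells (38.9 to 48.7%) had a Bcan UMI. With each cell thinned to 1000 gene UMIs the shares were 54.1% and 18.7%, with 69 uninjured and 35 injured shallower cells left out. In endothelial-like cells, which should lack the gene, 3 of 26 uninjured (11.5%, 2.45 to 30.2%) and 1 of 70 injured cells (1.43%, 0.0362 to 7.70%) had a Bcan UMI, at median depths of 3138 and 7972 gene UMIs. These intervals overlap. The uninjured endothelial-like level was 56.6 CPM, 7.21% of the astrocyte-like level, from 6 UMIs of which 4 lay in 1 cell, and the part of free RNA in it was not tested.

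Neurocan, which is known to be made by astrocytes, was modestly higher in injured cells. Ncan had 78.6 CPM in uninjured (73.5 to 83.95) and 109 CPM in injured astrocyte-like cells without Pdgfra (96.0 to 124), a ratio of 1.39 (1.20 to 1.61). With all cells the ratio was 1.38 (1.19 to 1.58), so Ncan stayed under 2-fold both ways. Inside cluster 1 the ratio was 2.47 (0.951 to 9.12). Inside cluster 5 the order was opposite, with 78.9 CPM in uninjured and 25.6 CPM in injured cells, with a ratio of 0.324 (0.0660 to 0.965), but the injured value rested on 3 UMIs. Among the injured cells, 175 with a UMI of Lcn2 or Timp1, secreted proteins of reactive astrocytes, had 138 CPM of Ncan and 234 without either had 67.1 CPM, a ratio of 2.06 (1.53 to 2.80). The former cells were also deeper, with a median of 4838 against 2622.5 gene UMIs, and the part of depth in this difference was not tested. In the same split Bcan was lower in the cells with Lcn2 or Timp1, at 218 against 316 CPM.

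Versican was the lectican past 2-fold higher in the injured library. Vcan had 88 UMIs in uninjured astrocyte-like cells, or 7.83 CPM (6.28 to 9.65), and 161 UMIs in injured ones, or 67.99 CPM (57.9 to 79.3). The ratio was 8.68 (6.65 to 11.4) and the log2 ratio 2.97. Without the cells with Pdgfra the levels were 7.75 and 22.7 CPM, with a ratio of 2.93 (2.02 to 4.19) and a log2 ratio of 1.44. Vcan thus remained past 2-fold, at a lower ratio. The cells without Pdgfra are a part of all cells, so the 2 intervals do not measure the change between these ratios. Inside single clusters the counts were too few to show a difference, with ratios of 2.09 (0.701 to 10.2) in cluster 1 and 2.52 (0.478 to 8.57) in cluster 5, and 0 injured UMIs in clusters 7 and 8. Of the cells without Pdgfra, 7.82% of injured and 2.64% of uninjured cells had a Vcan UMI, and 1.07% and 0.792% had one after thinning, both near the level of single UMIs. In microglia-like cells of the injured library 3.97% had a Vcan UMI, at 4.76 CPM and a median of 14070.5 gene UMIs, and 0 of 70 endothelial-like cells had one. In the uninjured library microglia-like cells had 8.55 CPM of Vcan, from 1 UMI, and endothelial-like cells 0, so the uninjured astrocyte-like level was not shown to be above background, and the ratio rests on it.

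Aggrecan was at the edge of detection in the astrocyte-like cells. Acan had 3 UMIs in each condition, and the 3 injured ones were all in cells with Pdgfra. The other 409 injured astrocyte-like cells had 0 UMIs, so that up to 0.733% of such cells could have had one.

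The membrane proteoglycans did not share 1 direction. Ptprz1, the receptor phosphatase, was abundant in both conditions, with 1171 CPM in uninjured (1151 to 1192) and 1023 CPM in injured astrocyte-like cells without Pdgfra (981 to 1066), a ratio of 0.873 (0.835 to 0.913). It had a UMI in 91.6% of uninjured and 66.0% of injured cells, and in 67.9% and 44.7% after thinning. With every cell weighted alike by thinning, its log2 ratio over all astrocyte-like cells was -0.62, against -0.14 in the sum in which deep cells weigh more. The direction of Ptprz1 differed between clusters. Its ratio was 0.539 (0.418 to 0.685) in cluster 5, but 1.87 (1.41 to 2.53) in cluster 1, which held 338 of the injured cells, the 6 with Pdgfra among them, and 15 uninjured ones. In clusters 7 and 8 it was 1.02 (0.727 to 1.39) and 1.13 (0.846 to 1.48).

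Cspg5 had 125 CPM in uninjured and 247 CPM in injured astrocyte-like cells, a ratio of 1.98 (1.80 to 2.19). Without the cells with Pdgfra the injured level was 132 CPM and the ratio 1.06 (0.934 to 1.21), an interval that includes 1. Cspg4 (NG2) moved in the same manner, from 1.51 CPM in uninjured to 11.8 CPM in all injured astrocyte-like cells and 2.72 CPM in those without Pdgfra. The last value rested on 6 UMIs, and its ratio of 1.80 had an interval of 0.580 to 4.78. No difference of Cspg4 between the conditions was therefore detectable at this depth once these cells were left out. Within clusters the Cspg5 ratios differed. In cluster 1 the ratio was 22.6 (4.04 to 894), from 570 injured UMIs, 293 of them in the 6 cells with Pdgfra, and 1 uninjured UMI in 15 cells. In cluster 5 it was 0.899 (0.404 to 1.75), and in clusters 7 and 8 it was 0.709 (0.193 to 1.82) and 0.463 (0.0560 to 1.68). Of 4 other ways to filter or cluster the cells, 2 placed no cell with a Pdgfra UMI among injured astrocyte-like cells, and these gave log2 ratios of 0.48 and 0.61 for Cspg4 and of 0.018 and 0.057 for Cspg5. The other 2 kept 4 such cells, with log2 ratios of 1.23 and 1.31 for Cspg4 and of 0.28 and 0.31 for Cspg5. The values of 0.48 and 0.018 came from a clustering in which the 7 genes were allowed, so these genes took part in choosing the cells.

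**Figure D2:**
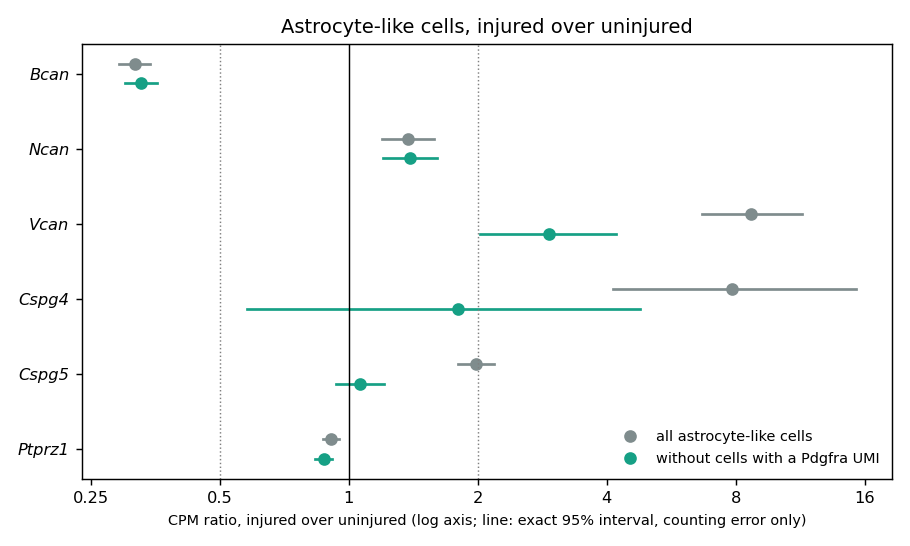
Ratio of CPM in injured over uninjured astrocyte-like cells for 6 proteoglycans (x axis, log scale; lines are exact 95% intervals for counting error), with all cells in grey and without cells with a Pdgfra UMI in green. Bcan lies below 0.5 and Ncan and Ptprz1 stay between the dotted lines at 0.5 and 2 in both sets, while Vcan moves from 8.68 to 2.93, Cspg4 from 7.81 to 1.80 and Cspg5 from 1.98 to 1.06. Acan is left out because each condition had 3 UMIs.

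A gene was counted as higher or lower at 2-fold or more, on the log2(CPM + 1) scale, among genes with a mean of at least 10 CPM over both conditions. A gene under 10 CPM in 1 condition, such as Vcan in uninjured cells, was therefore ranked only where the other condition was higher. With all astrocyte-like cells, 14.6% of the 9520 genes ranked were higher and 7.54% were lower. Of the 5 proteoglycans ranked, 1 was higher (Vcan) and 1 was lower (Bcan), and Acan and Cspg4 were too low to be ranked. Without the cells with Pdgfra, 12.5% of 9399 genes were higher and 7.36% lower, and the counts for the proteoglycans were the same. At 1 of 5 in each direction, the counts give no result about the proteoglycans as a group. The median log2 ratio of the 5 was 0.087 without the cells with Pdgfra, against -0.00197 over all ranked genes.

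The second question was how much of each transcript the OPC-like cells held. OPC-like cells had the highest levels of Vcan, Cspg4, Cspg5 and Ptprz1 of the injured classes with at least 20 cells. They made up 40 of 879 injured cells and 10.1% of the gene UMIs, but 70.5% of all Vcan UMIs, 67.7% of Cspg5 UMIs, 66.7% of Cspg4 UMIs and 13 of the 16 Acan UMIs in the cells kept. The 40 deep injured cells left out held another 890 Vcan and 46 Cspg4 UMIs. With these cells in the total, OPC-like cells held 45.8% of Vcan, 57.6% of Cspg4, 66.9% of Cspg5 and 7.23% of gene UMIs. Bcan and Ncan were divided differently, with 68.6% and 73.1% of their UMIs in astrocyte-like and 26.0% and 23.7% in OPC-like cells.

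In the injured library Vcan had 1359 CPM in OPC-like cells (1282 to 1440) and was found in 39 of 40 cells. Against astrocyte-like cells without Pdgfra this was 59.9-fold. The same ratio was 84.2 for Cspg4 (229 CPM in OPC-like cells), 11.5 for Cspg5 (1519 CPM) and 2.20 for Ptprz1 (2251 CPM). Acan had 15.2 CPM (8.10 to 26.0), in 10 of 40 cells, and was at least 11.2-fold higher than in astrocyte-like cells taken at 3 counts. Bcan (261 CPM) and Ncan (97.1 CPM) had ratios of 1.01 and 0.888, with the other classes far below both. Thus 4 of the 6 proteoglycans ranked were at least 2-fold higher in OPC-like cells, against 21.6% of the 10054 genes ranked in this comparison, and none was 2-fold lower, against 13%. Cspg4, at 2.72 CPM in astrocyte-like cells without Pdgfra, was ranked only through its OPC-like level. Over all ranked genes the median log2 ratio was 0.26. With the Pdgfra cells counted as astrocyte-like, the ratios were 20 for Vcan, 19.4 for Cspg4, 6.15 for Cspg5 and 2.11 for Ptprz1, against a background of 18.6% of 10099 genes. OPC-like cells were deeper, with a median of 20209.5 gene UMIs.

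The uninjured library held only 14 OPC-like cells, under the minimum of 20, so their values are set beside the injured ones with no reading of the difference. They had 1571 CPM of Vcan, 359 CPM of Cspg4, 2710 CPM of Cspg5, 3333 CPM of Ptprz1, 411 CPM of Bcan, 127 CPM of Ncan and 1 UMI of Acan. The order of OPC-like over astrocyte-like cells was the same as in the injured library for Vcan, Cspg4, Cspg5 and Ptprz1, with ratios of 203, 237, 21.7 and 2.84. For Bcan the ratio there was 0.523 (0.372 to 0.716). The sort and the small number of cells also set how many OPC-like cells each library held.

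**Figure D3:**
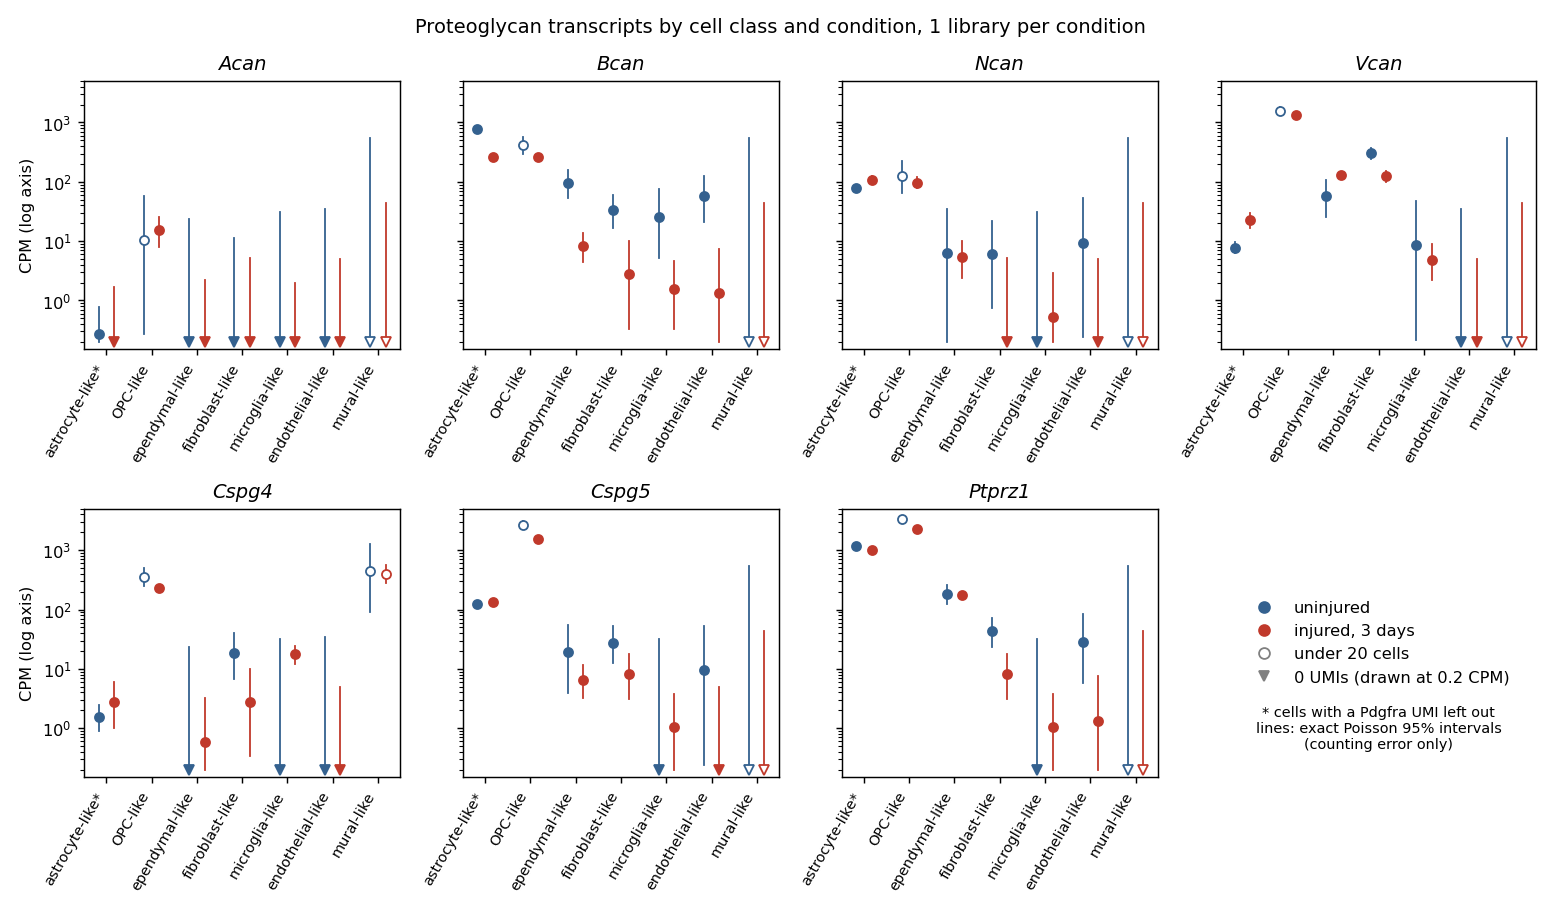
CPM of each proteoglycan (log axis) in 7 cell classes of the uninjured (blue) and injured (red) library, with exact Poisson 95% intervals as lines, open symbols for classes under 20 cells and triangles for 0 UMIs. Astrocyte-like cells are shown without those with a Pdgfra UMI. Vcan, Cspg5 and Ptprz1 are highest in OPC-like cells, and Bcan and Ncan are at similar levels in injured astrocyte-like and OPC-like cells. Cspg4 is highest in mural-like cells, a class under 20 cells, with OPC-like cells next.

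Vcan was the proteoglycan with the widest spread over the other classes of the sort. In the injured library ependymal-like cells, which line the central canal, had 130 CPM (113 to 148, 144 cells) and fibroblast-like cells 125 CPM (100.3 to 153, 43 cells), which did not differ beyond their intervals. Both were above astrocyte-like cells without Pdgfra, by 5.72-fold and 5.50-fold, and microglia-like cells followed at 4.76 CPM. Endothelial-like cells had 0 UMIs in 70 injured cells, a count compatible with up to 4.29% of cells. The ependymal-like UMIs lay in 42 of 144 cells, with 37 and 36 UMIs in the richest pair.

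Between conditions, Vcan was 56.8 CPM in uninjured ependymal-like cells, from 9 UMIs in 31 cells, which gave a ratio of injured over uninjured of 2.29 (1.18 to 5.07). The injured cells were deeper, at a median of 10505 against 4362 gene UMIs, and after thinning 6.99% of injured (3.40 to 12.5%) and 6.45% of uninjured cells (0.791 to 21.4%) had a Vcan UMI, shares whose intervals overlap. In fibroblast-like cells it was lower in the injured library, at 125 against 301 CPM, a ratio of 0.414 (0.308 to 0.556). That class was made of 2 clusters. Cluster 12, led by Smoc2, Ebf2 and Myoc, held 48 uninjured and no injured cells and had 470 CPM of Vcan. Within cluster 10, which both libraries shared, Vcan was 46.0 CPM in 47 uninjured cells, from 6 UMIs, and 125 CPM in 43 injured cells, a ratio of 2.71 (1.20 to 7.59). The direction in fibroblast-like cells therefore depended on whether cluster 12 was counted. The comparison also leaves out the 40 injured cells above the depth limit, while 0 uninjured cells were above it. Those 40 cells had 1575 CPM of Col1a1, a fibroblast marker, with UMIs in 38 of them, and 268 CPM of Vcan. Their effect on the fibroblast-like ratio was not tested.

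Ptprz1 had its next level after OPC-like and astrocyte-like cells in ependymal-like cells, at 183 CPM in uninjured and 178 CPM in injured cells, with a ratio of 0.971 (0.662 to 1.47). Bcan in ependymal-like cells was 94.6 CPM in the uninjured and 8.26 CPM in the injured library. The part of free RNA in this difference was not tested. In fibroblast-like and microglia-like cells of the uninjured library Bcan had 33.5 and 25.7 CPM.

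In the injured library Cspg4 had its highest level in mural-like cells, the class that holds pericytes, although these were under 20 cells. It had 34 UMIs in 12 of 13 injured mural-like cells, or 401 CPM (277 to 560), and 3 UMIs in 2 of 3 uninjured ones. Injured OPC-like cells had 229 CPM (198 to 264). Mural-like cells held 11.6% of the injured library's Cspg4 UMIs, with 0.999% of its gene UMIs. Microglia-like cells held 11.2% of the Cspg4 UMIs with 22.2% of the gene UMIs. Astrocyte-like cells held 9.52% with 27.9%. Microglia-like cells of the injured library had 33 Cspg4 UMIs in 14 of 126 cells (11.1%), or 17.5 CPM (12.02 to 24.5), with no more than 6 UMIs in a cell, while endothelial-like cells of the same library had 0 UMIs in 70 cells. In 31 uninjured microglia-like cells there were 0 UMIs, a count compatible with up to 9.68% of cells. At the lower depth of these cells, with a median of 3169 against 14070.5 gene UMIs, a difference between conditions was not detectable, and thinning to 1000 gene UMIs left 0 injured microglia-like cells with a Cspg4 UMI.

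Among uninjured astrocyte-like clusters the proteoglycans varied less than between classes. Over clusters 5, 7 and 8 the highest level over the lowest was 1.22 for Bcan, 1.14 for Ncan, 1.16 for Ptprz1 and 1.85 for Cspg5. Cspg5 was highest in cluster 7, led by Cldn10 and Hsd11b1, at 158 CPM, and lowest in cluster 5, led by mitochondrial transcripts, at 85.3 CPM. Vcan stayed between 6.21 and 10.1 CPM. The unnamed uninjured cells with astrocyte markers had levels close to these, with 848 CPM of Bcan, 81.2 CPM of Ncan and 1045 CPM of Ptprz1.

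The third question was whether the genes that build, sulfate, bind and cleave chondroitin sulfate chains moved with the core proteins in astrocyte-like cells. Of 55 such genes in 7 lists, 30 were ranked, 8 were at least 2-fold higher in injured cells and 2 at least 2-fold lower, with and without the cells with Pdgfra. The largest ratios were those of Cd44, the hyaluronan receptor, and Tnc, the lectican ligand tenascin-C. Values below are without the cells with Pdgfra, where 12.5% of all ranked genes were higher and 7.36% were lower.

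The enzymes that build the chain differed in direction. Of 11 synthesis genes ranked of 12, 2 were lower, 1 was higher and 8 were within 2-fold, with a median log2 ratio of -0.15. Xylt1, the xylosyltransferase that starts the chain, was 297 CPM in uninjured and 110.3 CPM in injured cells, with a log2 ratio of -1.42. Csgalnact1, which adds the first N-acetylgalactosamine of chondroitin, was 504 and 225 CPM, with a log2 ratio of -1.16. Chpf, a polymerizing factor of the chain, was 13.9 and 45.4 CPM, with a log2 ratio of 1.64. Chsy1, a chondroitin synthase, lay within 2-fold at 35.6 and 29.95 CPM.

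Of 10 genes for sulfation and epimerization only 3 were ranked, and Chst11, the main chondroitin 4-sulfotransferase, was past 2-fold at 54.8 and 115 CPM (log2 ratio 1.05). Its ratio lay close to the limit, and Chst12 and Ust, at log2 ratios of 0.52 and 0.39, did not reach it. Among matrix partners, Tnc was 0.980 CPM from 11 UMIs in uninjured and 28.6 CPM in injured cells (log2 ratio 3.90), and Tnr, the related tenascin-R, was 12.1 and 28.1 CPM (1.15). Tnr had 2128 CPM in injured OPC-like cells, and its log2 ratio with all astrocyte-like cells was 2.45. The hyaluronan synthases and link proteins were too low to be ranked.

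Of 6 receptor genes 3 were ranked and 2 were higher. Cd44 was 5.35 and 182 CPM (log2 ratio 4.85), and Ptprf, a LAR-type receptor phosphatase, was 28.0 and 71.7 CPM (1.33). Ptprs, the best known neuronal receptor for these chains, was 78.95 and 102 CPM, within 2-fold. Among 8 ranked genes for cleaving enzymes 2 were higher and none lower. Adamts1 was 8.02 and 51.7 CPM (2.55) and Adamts5 18.0 and 59.4 CPM (1.67), both secreted proteases that cut lecticans, while the lysosomal genes Hexa, Arsb and Gusb lay within 2-fold at log2 ratios of 0.37 to 0.59. The ligands of Ptprz1 were within 2-fold, at log2 ratios of 0.29 for Ptn (pleiotrophin), 0.37 for Mdk (midkine) and -0.82 for Cntn1 (contactin-1). The small proteoglycans Dcn and Bgn were too low in astrocyte-like cells to be ranked.

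**Figure D4:**
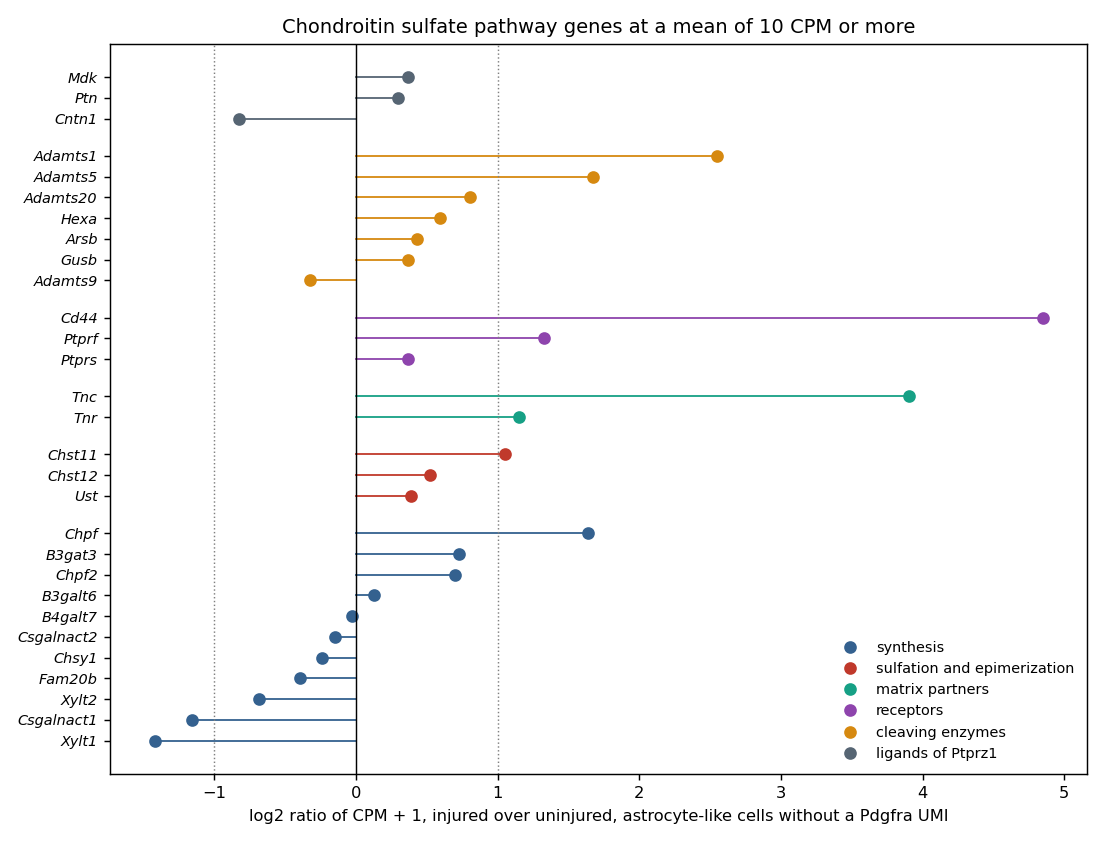
Log2 ratio of CPM + 1, injured over uninjured (x axis), for the ranked chondroitin sulfate pathway genes that are reported here, in astrocyte-like cells without a Pdgfra UMI, coloured by list, with dotted lines at 2-fold. Cd44, Tnc, Adamts1, Adamts5, Chpf, Ptprf, Tnr and Chst11 lie to the right of the upper line, and Xylt1 and Csgalnact1 to the left of the lower one.

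In injured OPC-like over astrocyte-like cells without Pdgfra, 14 of 35 ranked pathway genes were higher and 5 lower, against 21.6% and 13% of all ranked genes. Sulfation and epimerization gave 5 of 6 ranked genes higher, and these 5, chosen for naming after their values were seen, were Chst3, Chst7, Chst11, Dsel and Ust. Chst3, a chondroitin 6-sulfotransferase, was 38.6 CPM in OPC-like cells and had 1 UMI in astrocyte-like cells, and Ust, the uronyl 2-sulfotransferase, was 201 CPM against 18.1 CPM in astrocyte-like cells. Xylt1, which was lower in injured than in uninjured astrocyte-like cells, was 860 CPM in injured OPC-like cells. Cd44 and Ptprf were the 2 receptor genes that were lower in OPC-like cells, at 55.0 and 24.6 CPM.

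Across 11 sums of a class in a condition with at least 20 cells, the genes whose levels followed each proteoglycan most closely were found among 12355 genes. Points share libraries, and Pearson r of log2(CPM + 1) describes these sums only. Ptprz1 was followed by Lrp1b (r = 0.992) and Cntn1 (0.988), the latter being the gene of its ligand contactin-1. Bcan was followed by Adgrb1 (0.957) and Chst10 (0.9501), and Ncan by Mdga2 and Adgrb2 (both 0.972). Vcan was followed by Col11a1 (0.944) and Sgcd (0.939), both highest in injured OPC-like cells as Vcan was. Cspg4 was followed by Edil3 (0.916) and Rnf43 (0.915) and Cspg5 by Cadm4 (0.954) and Dlg2 (0.953). For Acan, Bcl11b and Tmem255b reached r of 1.00, but Acan was near 0 in all sums but 1, so these values rest on injured OPC-like cells alone.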

How the data were processed

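Gene expression was measured by 10x 3′ single-cell sequencing of tdTomato+ cells, with 1 library per condition. The authors deposited raw UMI counts per gene and cell, not normalised, with cells already called. Submitters' processing notes name Cell Ranger 8.0.1 and mm10, while the matrix headers name 7.1.0. The libraries shared 7 cell barcodes. The 23 enhancer barcode features in the same matrices were not used for the proteoglycans. Of 32285 Ensembl identifiers 32235 matched GENCODE M21 (GRCm38), which gave the positions.

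Cells were normalised to 10000, log transformed and clustered (scanpy 1.11.5, igraph 0.11.9, Python 3.11.15) with 2000 variable genes, 15 components, 15 neighbours and Leiden resolution 0.5, seed fixed, without the 7 genes, the pathway genes and the reporters. Each of 13 clusters took the class with the highest marker score (above 0.2) provided that 3 or more markers reached 10% of cells each and that its 10 leading genes held no excess of markers of a rival class, which named 11. This way of scoring clusters was chosen once the matrices had been seen. The members, markers and gene lists were chosen with earlier results of these data known. Scrublet marked 2 of 5038 cells (0.0397%), too few for the caller to have worked, so no doublets were removed.

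Depth was 8499672 injured and 15543460 uninjured gene UMIs. Counts were summed per class and condition as CPM with exact Poisson intervals, shares had exact Clopper-Pearson intervals and ratios exact conditional binomial intervals (scipy 1.17.1, numpy 2.4.6), all at 95% and for counting error only. A floor of 3 counts over the group was used for 0. Log2 ratios used 1 CPM added to both sides. With 1 library per condition there is no test and no p-value. Named were the 7 genes, in each pathway list up to 3 genes highest and 3 lowest among those past 2-fold in astrocyte-like cells, and the 2 genes nearest in pattern to each. Other genes of a list are given as values within the limit, and 1 gene is counted in its list but not reported here. The ratios were tested on simulated data. Alternatives changed the cell filter, clustering, class definition, pseudocount, scaling, depth, sex, doublets and the richest cell.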

Additional observations from a re-analysis of the deposited data

Results flagged for a closer look

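The change of Vcan between conditions had opposite directions in different classes. Its log2 ratio of injured over uninjured was 1.18 in ependymal-like and -1.27 in fibroblast-like cells, a difference of 2.44, and the difference was not tested. After thinning, the shares of ependymal-like cells with a Vcan UMI were 6.99% and 6.45%. In astrocyte-like cells without a Pdgfra UMI the ratio was 1.44, which lay 2.70 above the fibroblast-like one, again not tested. The fibroblast-like value includes cluster 12, which held uninjured cells only, and within cluster 10 the log2 ratio was 1.42. It leaves out the deep injured cells described next.

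Vcan was also found in the 40 injured cells left out for 50000 or more gene UMIs, at 268 CPM (251 to 286), with 890 UMIs in 39 of the 40 cells. The same cells had 1575 CPM of Col1a1, 102 CPM of C1qa and 36.8 CPM of Gfap, which are genes of fibroblasts, microglia and astrocytes. Pdgfra, used here as an OPC marker but shared with perivascular cells in the paper, had 114 CPM in them. Cspg5 and Ptprz1 had 6.93 and 11.8 CPM there, against 1519 and 2251 CPM in injured OPC-like cells. Which cell types held the Pdgfra and Vcan UMIs was not tested. Barcodes of the enhancer viruses, which the comparisons of the proteoglycans do not use, had 228 UMIs per 1000000 gene UMIs in the injured library, from 1935 UMIs, and 58.5 in the uninjured library, from 909.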

How the results depend on the processing

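With 1 library per condition there was no replicate check, and sequencing depth limits Acan and Cspg4 in astrocyte-like cells. No paired analysis was possible because a single library stands for each condition. No log2 ratio past 2-fold changed sign, and of the ratios and counts recomputed 130 moved by less than their counting interval and 64 by more. Of the levels per class and the shares of cells, 123 moved by less than their interval and 31 by more. Leaving out the cells with a Pdgfra UMI, those scored highest for another class and those with shared barcodes, and counting the deep cells in the OPC-like shares, were chosen after seeing the data. The causes of these movements were not tested, beyond the cells that each setting adds or removes.

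For injured over uninjured astrocyte-like cells, the log2 ratios that moved were as follows. With no filter on cells they were -1.51 for Bcan, 1.33 for Vcan, 0.61 for Cspg4 and 0.057 for Cspg5. With at least 1000 gene UMIs per cell they were -1.54 for Bcan, 1.79 for Vcan, 1.31 for Cspg4 and 0.31 for Cspg5. At Leiden resolution 1 they were 1.69 for Vcan, 1.23 for Cspg4, 0.28 for Cspg5 and -0.21 for Ptprz1. With all genes allowed in clustering they were 1.72 for Vcan, 0.48 for Cspg4, 0.018 for Cspg5 and -0.22 for Ptprz1. In cells with an Aldh1l1 UMI Cspg4 was at 1.55 and Cspg5 at 0.24. A pseudocount of 10 CPM gave 2.13 for Vcan and 0.92 for Cspg4. In cells scored male Bcan was at -1.52 and Cspg5 at 1.20. Without the cell richest in the gene Vcan was at 2.66 and Cspg5 at 0.79. Thinned to 1000 gene UMIs, the values were -1.87 for Bcan, 1.47 for Vcan, 1.13 for Cspg4, -0.20 for Cspg5 and -0.62 for Ptprz1. The thinned Cspg4 value rested on 1 injured and 2 uninjured UMIs. That of Vcan rested on 9 injured UMIs in 380 cells, 5 of them in cells with Pdgfra, and 24 uninjured UMIs in 3034 cells. Without cells with Pdgfra 4 and 24 thinned Vcan UMIs were left, too few to place Vcan past 2-fold. Without cells with Pdgfra and without thinning, the log2 ratios were 1.44 for Vcan, 0.57 for Cspg4 and 0.087 for Cspg5. Without cells scored highest for another class they were -1.41 for Bcan, 1.21 for Vcan, 0.54 for Cspg4, 0.19 for Cspg5 and -0.034 for Ptprz1. Ncan stayed between 0.30 and 0.62 throughout.

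For injured OPC-like over astrocyte-like cells, no filter on cells gave -0.33 for Bcan, 5.69 for Vcan, 5.68 for Cspg4, 3.47 for Cspg5 and 0.94 for Ptprz1. At least 1000 gene UMIs per cell gave -0.41 for Bcan, 5.39 for Vcan, 5.10 for Cspg4, 3.24 for Cspg5 and 0.99 for Ptprz1. Leiden resolution 1 gave -0.38 for Bcan, 5.45 for Vcan, 5.16 for Cspg4 and 3.29 for Cspg5. All genes in clustering gave 5.62 for Vcan, 5.91 for Cspg4 and 3.57 for Cspg5. A pseudocount of 10 CPM gave 1.16 for Acan and 3.45 for Cspg4. Cells scored male gave 2.11 for Cspg5 and 0.73 for Ptprz1. Cspg5 was at 2.45 without the highest 5% of Scrublet scores and at 2.77 without the richest cell. Without cells with Pdgfra the values were 5.84 for Vcan, 5.95 for Cspg4 and 3.51 for Cspg5. Of the proteoglycan and pathway genes together, 9 were at least 2-fold higher in injured astrocyte-like cells at a mean of 10 CPM. At that limit 14.6% of all 9520 ranked genes were higher. At a mean of 50 CPM the count was 2. Fewer genes were ranked there and the share of all genes is not given, so the fall of the count has no reading.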
